A study of Mus musculus with 8 samples.

Results

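A stretch of mouse chromosome 14 was examined in the prefrontal cortex of mice that lack α-galactosidase A. It holds the probes whose start, as the array design places them on the mm9 genome build, lies from 30 to under 40 Mb of chromosome 14, without the probes of Mapk8 and Cdhr1. There were 196 such probes, for 125 gene or transcript names, of 55681 non-control probes on the array, and the 4 probes left out by name lie inside the same limits. The stretch was chosen from regions of 10 Mb by how many of its genes passed the study's criterion in these same arrays. The differences given here are therefore the values by which it was found and serve as a description. Where they begin and end, which transcripts carry them and how the probes of one gene relate to each other are the subject of what follows.

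RNA came from 4 male α-Gal A(-/0) mice, which carry a null mutation of the X-linked gene Gla on a C57BL/6 background and are a model of Fabry disease, and from 4 male wildtype C57BL/6J mice. The mice were 20 to 24 weeks old and were taken from separate inbred colonies, so that genotype and colony cannot be told apart. Each mouse was measured on 1 one-color Agilent array, and p-values measure the spread between mice. Signals are given as log2 of the quantile normalized brightness of a probe, and a log2 fold change is α-Gal A(-/0) minus wildtype.

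The probe of Gla had log2 signals of 17.13, 17.18, 17.17 and 17.13 in the α-Gal A(-/0) mice and 17.01, 17.17, 17.06 and 17.13 in the wildtype mice. Its place relative to the disrupted part of the gene is not given in the sources used here, so that it does not check the labels. The α-Gal A(-/0) arrays had 29943 to 36139 probes well above background and the wildtype arrays 35648 to 38240, and α-Gal A(-/0) replicate 2 was the array with the fewest. All 5 listed marker genes of excitatory neurons, inhibitory neurons, astrocytes, oligodendrocytes and microglia each were above background on all 8 arrays. The arrays lay in 2 rows of 1 slide, and the first row held α-Gal A(-/0) replicate 1 with wildtype replicates 1 to 3.

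Genes that lie side by side on a chromosome need not share a function, and this stretch is mixed. It contains genes of chromatin and of mitochondria, the cholinergic gene locus in which Slc18a3 lies within Chat, genes of the retina such as Rbp3, and Ldb3, whose protein holds together the Z-disc of striated muscle. Each 60-base probe reads only the piece of transcript that it matches, so 2 probes of one gene can read different transcript variants.

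The sequences of 9 probes are shown because the largest differences and the clearest contrasts between neighbouring probes rest on them. Of the mRNA probes the first 30 bases are given and of the noncoding probes all 60, each 5′ to 3′ as the array files give them, with positions on mm9. Capitals mark the run of a probe that a probe for the opposite strand also covers.
Ldb3, A_65_P11603, chr14:35340222-35340281, minus strand: gcatagtgttaagattaaggctgaatgtcg
Ldb3, A_51_P265348, chr14:35374689-35374748, minus strand: aactcccacaagtggagtctctgtacaccc
Ghitm, A_52_P246749, chr14:37934257-37934316, minus strand: ggattggtttttcttctaaaactgttggct
Ghitm, A_55_P2061381, chr14:37935137-37935196, minus strand: gtaatgcgacccttcaggcatgccttttct
Zfp488, A_55_P2093924, chr14:34780296-34780355, minus strand: agcaatctctgaactagaaaatggccctca
Zfp488, A_55_P1980432, chr14:34780239-34780269, minus strand: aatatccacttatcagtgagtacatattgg
Gm3219, A_55_P2061076, chr14:35158425-35158484, plus strand: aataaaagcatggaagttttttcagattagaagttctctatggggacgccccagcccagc
Noncoding interval, A_30_P01024957, chr14:33936770-33936829, minus strand: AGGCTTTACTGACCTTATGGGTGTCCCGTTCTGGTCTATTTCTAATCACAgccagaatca
Noncoding interval, A_30_P01027511, chr14:33936830-33936889, minus strand: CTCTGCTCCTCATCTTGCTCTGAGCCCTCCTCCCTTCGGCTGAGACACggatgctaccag

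Of the 196 probes, 125 were well above background on every array of α-Gal A(-/0) mice, of wildtype mice or of both, and were tested, for 94 names. The other 71 were not tested, and 46 of these were above background on no array. Among the tested probes, 104 were above background on all 8 arrays, 21 had passed through the wildtype arrays alone and 0 through the α-Gal A(-/0) arrays alone. A single dim array can keep a probe from passing through its genotype, and α-Gal A(-/0) replicate 2 had the fewest probes above background. Without that array 129 probes of the stretch were tested, as many as without wildtype replicate 4. The part of that array in the numbers passing through 1 genotype alone was not tested. Passing through the wildtype arrays alone favours probes that are lower in α-Gal A(-/0) mice but does not force a difference. The Itih4 probe A_55_P2077055 passed in this way with a log2 fold change of 0.23 (standard error 0.236). The genotypes were compared with limma's two-sided test. Its p-values were adjusted by Benjamini-Hochberg across the 34339 probes tested on the array, and a probe with an adjusted p under 0.05 is referred to as called.

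Of the 125 tested probes 12 were called, for 11 names, where 0.885% of all tested probes of the array were called. In α-Gal A(-/0) mice 3 probes were higher, against a background of 0.306%, and 9 were lower, against a background of 0.58%. The study's criterion, an unadjusted p no larger than 0.01 and a fold change no smaller than 1.2, was met by 17 probes, 3 of them higher and 14 lower, where 3.46% of all tested probes met it. The 4 α-Gal A(-/0) values lay wholly above the 4 wildtype values for 5 probes and wholly below them for 19, where 3.08% and 4.87% of all tested probes did so, and 7.95% did one or the other. Since the stretch was picked on this contrast, nothing is read from these shares. The median log2 fold change over the stretch was -0.02, the same as the median over all tested probes, and the median absolute log2 fold change was 0.13, against 0.09 over all tested probes.

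The differences did not fill the stretch. The first 64 tested probes, for 49 names, ran to Parg, which encodes the glycohydrolase that removes poly(ADP-ribose). None of them was called, none passed the study's criterion and 1 had an unadjusted p under 0.05, and their median absolute log2 fold change was 0.07. From Parg to the first called probe, 18 further tested probes followed with a median absolute log2 fold change of 0.36, and 6 of them had an unadjusted p under 0.05. The 12 called probes then lay between the starts 33936829 and 37935196, over 3.998 Mb with 40 tested probes, whose median absolute log2 fold change was 0.23. Behind the last of them only 3 tested probes were left up to 40 Mb, at Nrg3, an unnamed transcript and Nrg3os, and their absolute log2 fold changes were at most 0.08.

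**Figure D1:**
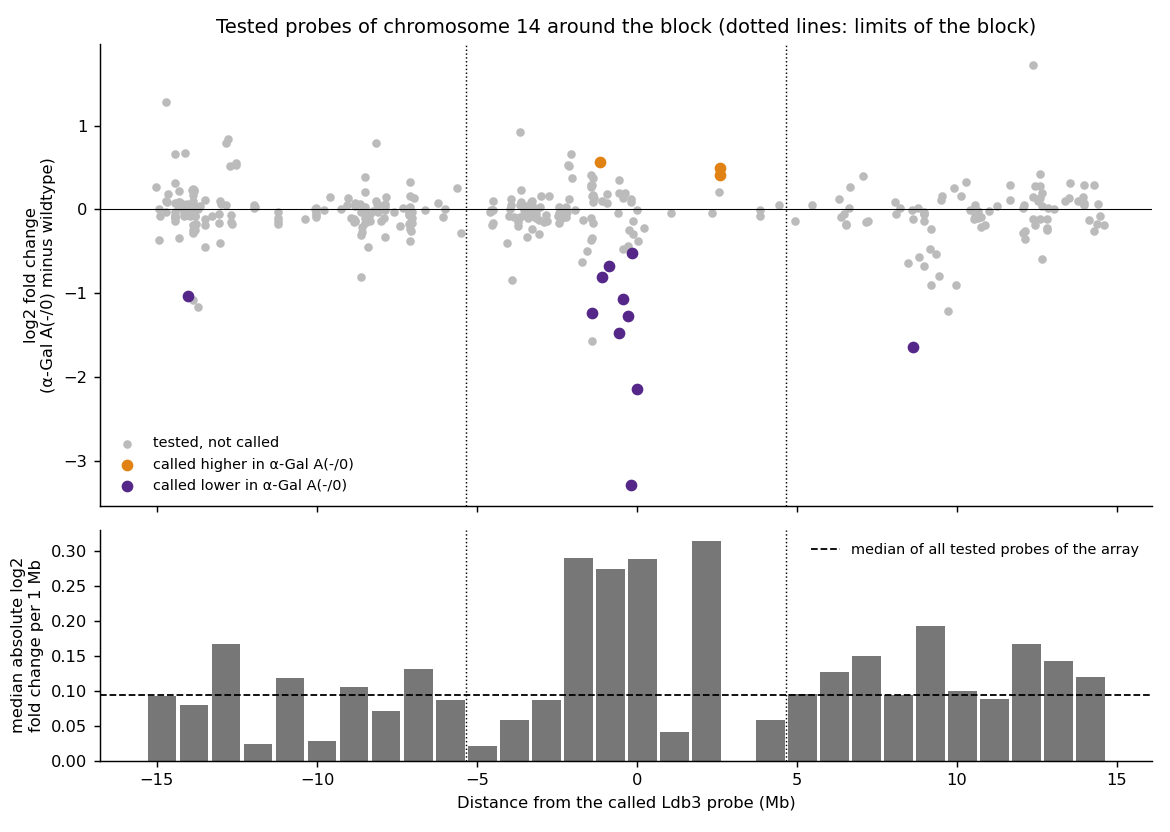
Log2 fold change (α-Gal A(-/0) minus wildtype) of each tested probe of chromosome 14 from 20 to 50 Mb without those of Mapk8 and Cdhr1 (upper plot), and the median absolute log2 fold change in windows of 1 Mb (lower plot), against the distance in Mb from the called Ldb3 probe. The windows from 33 to 36 Mb reach medians of 0.27 to 0.29, against 0.09 for all tested probes of the array (dashed line), where the first of these windows includes probes of large standard error, and the window from 38 to 39 Mb holds no probe.

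By windows of 1 Mb, the median absolute log2 fold change was 0.02 at 30 to 31 Mb, 0.06 at 31 to 32 Mb and 0.09 at 32 to 33 Mb. It was 0.29 at 33 to 34 Mb, 0.27 at 34 to 35 Mb and 0.29 at 35 to 36 Mb. These medians are of unsigned values, and the window at 33 to 34 Mb includes probes of large SE such as Slc18a3 (0.66, SE 0.461), BB086117 (0.52, SE 0.510) and Gm2990 (0.38, SE 0.388). Its signed median was 0.09, and the first probe of the stretch that passed the study's criterion was that of Wdfy4 at 33772880, so the medians do not place a start of the differences at 33 Mb. The window at 36 to 37 Mb held 1 tested probe, that of Grid1, a delta-type glutamate receptor subunit, with a log2 fold change of -0.04. At 37 to 38 Mb there were 4 tested probes with a median of 0.31, and the 2 called probes of Ghitm were among them. Between the called probes of Ldb3 and Ghitm lay 2594 kb, where few probes were tested, so the data do not place an end of the lower calls within this gap. Beyond Ghitm the nearest tested probe, that of Nrg3, a ligand of the receptor ErbB4, was 1249 kb away.

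At the limits themselves no probe was called. Just outside 30 Mb lay Lrtm1, with a log2 signal of 5.94 ± 0.436 in the α-Gal A(-/0) mice and 6.22 ± 0.272 in the wildtype mice (SD, n = 4 each), and just inside lay a noncoding interval probe with 7.30 ± 0.340 in the α-Gal A(-/0) mice and 7.33 ± 0.187 in the wildtype mice. Just inside 40 Mb, Nrg3os had 6.87 ± 0.186 in the α-Gal A(-/0) mice and 6.81 ± 0.0439 in the wildtype mice, and just outside LOC432842 had 9.67 ± 0.108 in the α-Gal A(-/0) mice and 9.80 ± 0.104 in the wildtype mice. In the flanks of 10 Mb on either side, 1 of 164 tested probes was called before the stretch, a lower probe of Mss51, and 1 of 94 was called behind it, a lower probe of Gm3161. The median absolute log2 fold changes of the flanks were 0.09 and 0.13.

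Ldb3, whose protein binds α-actinin through its PDZ domain at the Z-disc of muscle, carried the lowest p of the stretch. Its probe A_65_P11603, which the array design assigns to transcript variant 1 and further long variants, had log2 signals of 6.12, 5.70, 5.98 and 6.22 in the α-Gal A(-/0) mice and 8.03, 8.17, 8.02 and 8.35 in the wildtype mice. All 4 α-Gal A(-/0) mice were thus far below all wildtype mice, and the signal was above background in 3 of the 4. The log2 fold change was -2.14 (standard error, SE, 0.125, adjusted p = 0.000138 by limma). With normexp background correction it was -1.35, so that its size depends on how the dim signals are treated. In a tissue of many cell types, fewer cells of a type and less RNA per cell cannot be told apart.

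The second Ldb3 probe, A_51_P265348, belongs to variants 7 and 6 of the transcript and lies 34.5 kb away. It had log2 signals of 6.49, 6.44, 6.395 and 6.77 in the α-Gal A(-/0) mice and 6.98, 6.89, 6.94 and 6.77 in the wildtype mice, so that the highest α-Gal A(-/0) value nearly met the lowest wildtype value. The log2 fold change was -0.37 (SE 0.0928, adjusted p = 0.164 by limma), which passed the study's criterion without being called. Other muscle genes of the stretch were not called. Tnnc1, the calcium-binding troponin of slow and cardiac muscle, had 8.69 in the α-Gal A(-/0) mice and 8.60 in the wildtype mice. Mustn1, named for its place in muscle and skeleton, had 5.89, 8.81, 5.86 and 5.92 in the α-Gal A(-/0) mice and 5.94, 5.66, 5.31 and 5.86 in the wildtype mice, where α-Gal A(-/0) replicate 2 was the 1 high value behind the log2 fold change of 0.93 (SE 0.637, adjusted p = 0.607 by limma). Of 9 marker genes of striated muscle elsewhere in the genome 6 were tested and none was called, and the probes of Ckm and Ttn were above background on no array. The mean log2 signal over the brightest probe of each of the 6 was 9.80 to 9.96 in the α-Gal A(-/0) mice and 9.79 to 9.87 in the wildtype mice.

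The PDZ-LIM genes related to Ldb3, spread over the genome, showed no call. Among the 7 genes of the family with 12 tested probes, the called Ldb3 probe was the only call, and 0 were called higher. Pdlim1 had 0.25 as log2 fold change (adjusted p = 0.242 by limma), Pdlim2 0.12, Pdlim3 -0.07 and Pdlim4 -0.09. The 3 probes of Pdlim5 ranged from -0.12 to 0.15 and the 3 of Pdlim7 from 0.16 to 0.46, with adjusted p of at least 0.385.

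Ghitm, a protein of the inner mitochondrial membrane from the TMBIM family, was higher at both of its probes. A_55_P2061381 had log2 signals of 13.23, 13.20, 13.24 and 13.27 in the α-Gal A(-/0) mice and 12.77, 12.69, 12.71 and 12.78 in the wildtype mice. The 2 genotypes were separated by many times the spread within each, and the log2 fold change was 0.50 (SE 0.0510, adjusted p = 0.00302 by limma), which is 1.41-fold higher. A_52_P246749, 0.880 kb away in the same transcripts, had 14.77, 14.62, 14.66 and 14.87 in the α-Gal A(-/0) mice and 14.33, 14.22, 14.39 and 14.32 in the wildtype mice. Its log2 fold change of 0.42 (SE 0.0728, adjusted p = 0.0470 by limma) was called by a narrow margin, and it differed by 0.08 from that of the first probe. The call at A_52_P246749 was lost whichever array was left out (adjusted p from 0.0530 to 0.147 by limma). It was kept in 4 of 8 other planned settings. Both pieces of the transcript thus differed in the same direction, with the weaker call at A_52_P246749. Before Ghitm in position, 2610528A11Rik had 0.21 as log2 fold change (adjusted p = 0.506) and Ccser2 one of -0.04 (adjusted p = 0.852 by limma).

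No other member of the TMBIM family was called. Of 7 genes with 8 tested probes, the 2 Ghitm probes were called and 0 were lower. Grina had a log2 fold change of 0.11, Tmbim1 0.03, Tmbim4 -0.03, Tmbim6 0.01, Faim2 -0.03 and Tmbim7 0.01. Of 6 genes of mitochondrial proteins in the stretch, with 9 tested probes, again only those of Ghitm were called, and the list had a median log2 fold change of 0.00, against -0.02 over all tested probes. Timm23, part of the import channel of the inner membrane, had -0.07 at its brightest probe, and Glud1, the mitochondrial glutamate dehydrogenase, had 0.13 and 0.09 at its 2 probes.

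Arhgap22, a GTPase activating protein that acts on Rac, was the third probe called higher. It had log2 signals of 10.46, 10.49, 10.74 and 10.64 in the α-Gal A(-/0) mice and 10.20, 9.92, 9.91 and 10.02 in the wildtype mice, without overlap. The log2 fold change was 0.57 (SE 0.0918, adjusted p = 0.0328 by limma). This call was kept in only 1 of 8 omissions of an array (adjusted p from 0.0298 to 0.118 by limma) and in 5 of 8 other planned settings. The probes called higher were bright, with mean log2 signals of 10.01 to 14.32 in wildtype mice. The 9 probes called lower were dim, with 5.61 to 8.14 in wildtype mice, against a median of 8.89 over the tested probes of the stretch. Of the 9, 7 were above background on fewer than 4 α-Gal A(-/0) arrays and had been tested through the wildtype arrays alone. Normexp background correction, which shrinks differences between dim signals, gave -0.52 at A_30_P01024957, -0.75 at Zfp488, -0.54 at Anxa8 and -0.46 at Syt15, all still called, while Ptpn20 lost its call. With each of the 8 arrays left out in turn, A_30_P01024957 stayed called in all 8 cases, Zfp488 in 1, Anxa8 in 2 and Syt15 in 2. With no filter on signal the calls of Zfp488, Anxa8 and Syt15 were lost.

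**Figure D2:**
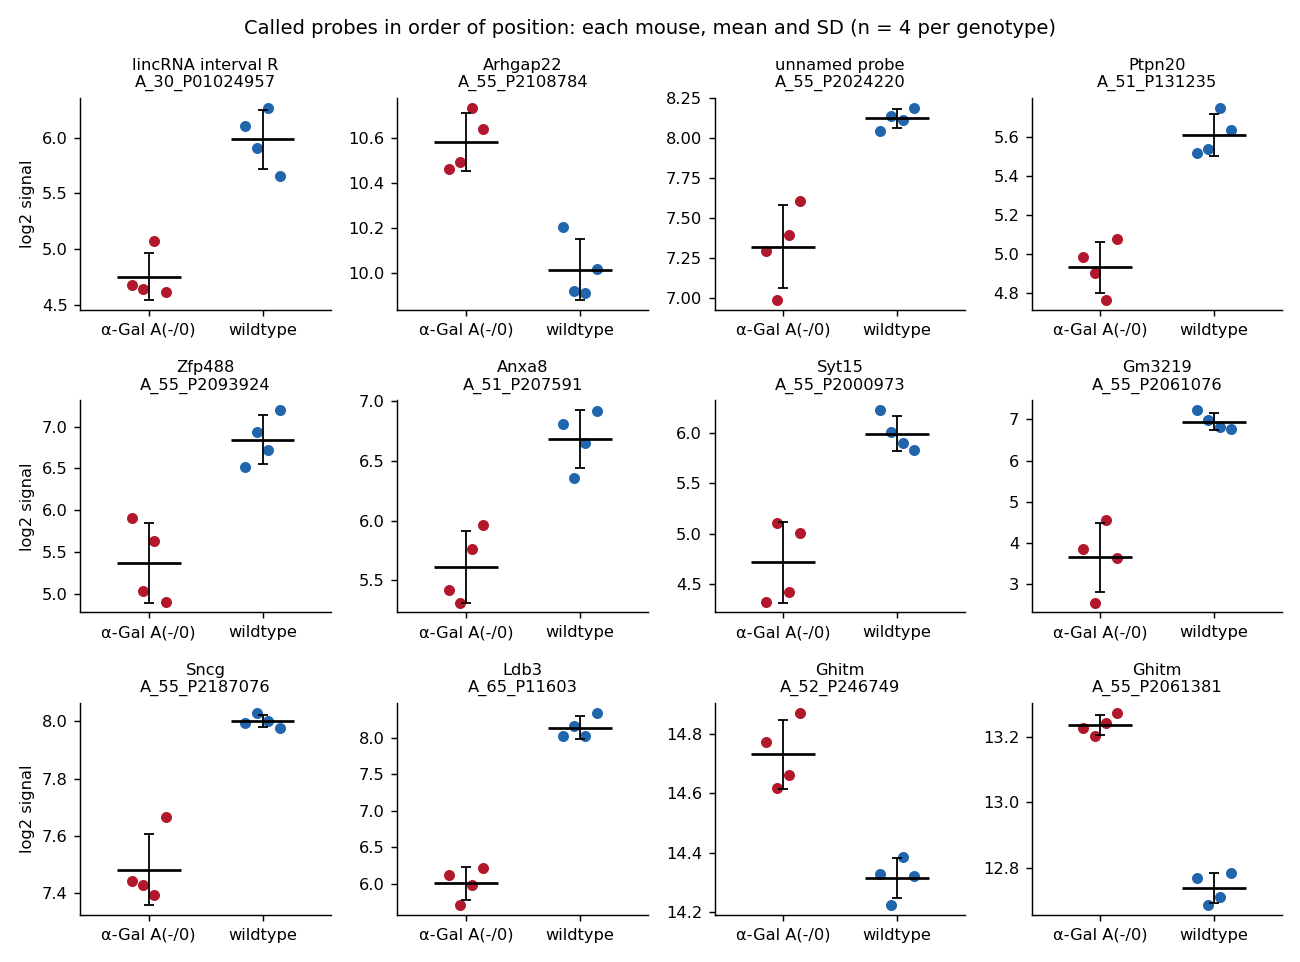
Log2 signal of the 12 called probes in order of their position, with 1 point per mouse, the mean (long bar) and the SD (whiskers) for α-Gal A(-/0) mice at the left and wildtype mice at the right of each plot (n = 4 each, axes differ between plots and do not start at 0). In each plot the 4 values of one genotype lie apart from the 4 of the other, and the α-Gal A(-/0) mice are above wildtype at 3 probes and below at 9.

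The largest difference was that of Gm3219, a transcribed pseudogene in RefSeq. Its log2 signals were 3.86, 2.55, 4.57 and 3.65 in the α-Gal A(-/0) mice and 7.22, 6.99, 6.80 and 6.75 in the wildtype mice. Only 1 α-Gal A(-/0) array had the probe above background, while all wildtype arrays did. The log2 fold change was -3.28 (SE 0.371, adjusted p = 0.00537 by limma), and its size rests on values near background, since it was -1.18 with normexp background correction. The probe starts 0.485 kb after that of Glud1 on the same strand, and Glud1 at that place had 14.35 ± 0.0556 in the α-Gal A(-/0) mice and 14.26 ± 0.0610 in the wildtype mice (SD, n = 4 each).

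Within 25.1 kb of Gm3219 lies the called probe of Sncg, which encodes γ-synuclein. It had log2 signals of 7.44, 7.43, 7.39 and 7.67 in the α-Gal A(-/0) mice and 8.00, 8.03, 8.00 and 7.98 in the wildtype mice. All of these were above background, and the wildtype values lay close together, between 7.98 and 8.03. The log2 fold change was -0.52 (SE 0.0705, adjusted p = 0.0137 by limma). Between the 2 lies Fam25c, which was not tested and is named because its values stood apart. It had 6.01, 5.60, 5.89 and 5.90 in the α-Gal A(-/0) mice and 2.85, 2.28, 3.28 and 2.27 in the wildtype mice, and it was above background on 3 α-Gal A(-/0) arrays and on no wildtype array. Against the dimmest signals that counted as above background, the mean of the α-Gal A(-/0) mice was 3.55-fold higher. That mean includes an array below background, so the value is a rough estimate and not a bound. A transcript of higher signal thus lay between the probes of Gm3219 and Sncg, which were lower.

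Syt15, a member of the synaptotagmin family of membrane trafficking proteins, had log2 signals of 4.33, 5.11, 4.43 and 5.01 in the α-Gal A(-/0) mice and 6.23, 6.01, 5.90 and 5.83 in the wildtype mice at its probe for transcript variant a. The log2 fold change was -1.27 (SE 0.192, adjusted p = 0.0238 by limma), with 2 of 4 α-Gal A(-/0) arrays above background. The probe of its other variant was not tested, with means of 2.46 in the α-Gal A(-/0) mice and 2.45 in the wildtype mice. Ptpn20, a tyrosine phosphatase, had 4.98, 4.91, 4.76 and 5.08 in the α-Gal A(-/0) mice and 5.52, 5.54, 5.75 and 5.63 in the wildtype mice. Its log2 fold change of -0.68 (SE 0.0854, adjusted p = 0.00987 by limma) was among the smaller ones, and both groups were dim. The call was lost with normexp, where the log2 fold change was -0.26 (adjusted p = 0.0891 by limma), and in 3 further settings. A probe with no gene name in the array design, A_55_P2024220, had 7.29, 6.99, 7.39 and 7.61 in the α-Gal A(-/0) mice and 8.05, 8.14, 8.11 and 8.19 in the wildtype mice, a log2 fold change of -0.80 (SE 0.122, adjusted p = 0.0254 by limma).

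Zfp488, a zinc finger protein of oligodendrocyte differentiation, was lower at 1 probe and not at the other, although the array design assigns them to the same transcript and they start 0.086 kb apart. A_55_P2093924 had log2 signals of 5.90, 5.03, 5.63 and 4.90 in the α-Gal A(-/0) mice and 6.51, 6.94, 6.72 and 7.20 in the wildtype mice, a log2 fold change of -1.48 (SE 0.244, adjusted p = 0.0368 by limma). A_55_P1980432 had 10.32, 10.29, 10.37 and 10.67 in the α-Gal A(-/0) mice and 10.06, 10.29, 10.26 and 10.28 in the wildtype mice, a log2 fold change of 0.19 (adjusted p = 0.491 by limma). The design places only 31 of the 60 bases of this brighter probe at its position, and whether its signal is that of Zfp488 alone was not tested. Markers of oligodendrocytes, none of them called, had mean log2 signals over the brightest probe of each gene of 13.01 to 13.10 in the α-Gal A(-/0) mice and 12.77 to 13.05 in the wildtype mice. The part of these markers in the Zfp488 values was not tested.

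Anxa8, an annexin that binds phospholipids in the presence of calcium, had 2 probes 0.513 kb apart. The called probe, averaged over 10 spots, had log2 signals of 5.42, 5.31, 5.76 and 5.96 in the α-Gal A(-/0) mice and 6.81, 6.36, 6.65 and 6.92 in the wildtype mice. Its log2 fold change was -1.07 (SE 0.172, adjusted p = 0.0328 by limma). The other probe had 5.02 to 5.09 in the α-Gal A(-/0) mice and 5.11 to 6.16 in the wildtype mice, a log2 fold change of -0.47 (adjusted p = 0.400 by limma). Over the 20 named genes with 2 or more tested probes in the stretch, the log2 fold changes of a gene's probes differed by a median of 0.09. They differed by under 0.2 in 17 genes and by over 0.3 in 3 genes, which were Ldb3, Zfp488 and Anxa8.

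**Figure D3:**
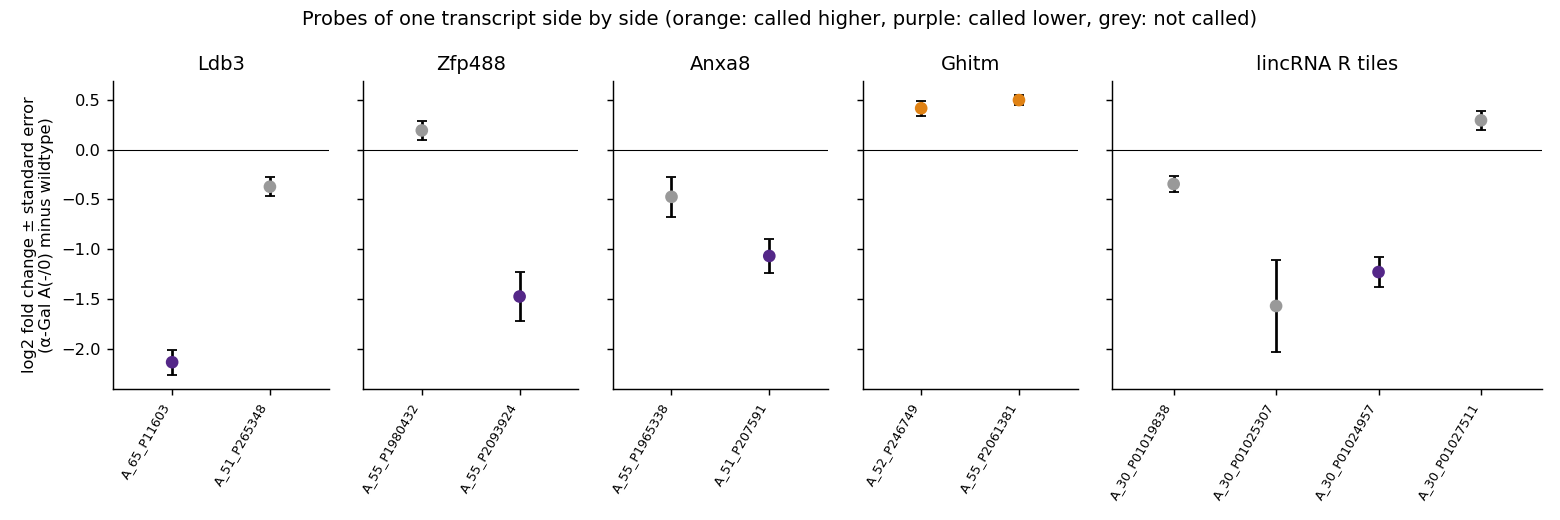
Log2 fold change (α-Gal A(-/0) minus wildtype) with its SE for the probes of Ldb3, Zfp488, Anxa8 and Ghitm and for 4 neighbouring probes of a noncoding interval, each in order of position. The 2 Ghitm probes differ by 0.08, while those of Ldb3 and Zfp488 differ by 1.76 and 1.67.

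The first called probe of the stretch was A_30_P01024957, which reads the minus strand of an interval that the array covers with noncoding RNA probes laid end to end. It had log2 signals of 4.68, 4.64, 5.07 and 4.62 in the α-Gal A(-/0) mice and 6.10, 5.91, 6.27 and 5.65 in the wildtype mice, a log2 fold change of -1.23 (SE 0.152, adjusted p = 0.00883 by limma). The probe before it had a log2 fold change of -1.57 (SE 0.460, adjusted p = 0.241), with 1 of 4 α-Gal A(-/0) arrays above background, and the next one before that had -0.35 (SE 0.0802, adjusted p = 0.134 by limma). Directly at its other end, A_30_P01027511 had 11.16, 11.32, 11.29 and 11.61 in the α-Gal A(-/0) mice and 10.998, 10.99, 11.14 and 11.06 in the wildtype mice. That is a log2 fold change of 0.29 (adjusted p = 0.295 by limma) at a signal far above that of its neighbour. Over 4 neighbouring probes of the same strand the values thus ran from below wildtype to slightly above it. No called probe shared a run of 20 bases with another probe of the array on the same strand, and this 1 shared such a run with a probe of the opposite strand.

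Some genes passed the study's criterion without being called. Wdfy4, which takes part in antigen cross-presentation by dendritic cells, had log2 signals of 8.42, 8.18, 8.33 and 8.62 in the α-Gal A(-/0) mice and 9.01, 8.82, 8.95 and 8.76 in the wildtype mice, a log2 fold change of -0.50 (adjusted p = 0.0868 by limma). Of 9 tested probes of 5 microglia markers 1 was called lower, a Csf1r probe. Another Csf1r probe, A_55_P2025073, had a log2 fold change of 0.59 (SE 0.453), with 12.12 in α-Gal A(-/0) replicate 2. Over the brightest probe of each marker, the mean log2 signal was 11.61 to 11.82 in the α-Gal A(-/0) mice and 11.95 to 12.15 in the wildtype mice, so that the groups did not overlap. The part of the microglia markers in the Wdfy4 values was not tested. Mmrn2, a multimerin of vessel walls, had 10.56, 10.50, 10.38 and 10.36 in the α-Gal A(-/0) mice and 10.83, 10.698, 10.61 and 10.82 in the wildtype mice, a log2 fold change of -0.29 (adjusted p = 0.186 by limma).

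Around Ldb3, some further genes were slightly below wildtype without a call, and others were not. Bmpr1a, a type I receptor of bone morphogenetic proteins, had -0.14 as log2 fold change (adjusted p = 0.379), and Wapal (Wapl), which releases cohesin from chromosomes, one of -0.22 (adjusted p = 0.258 by limma). In both the 4 α-Gal A(-/0) values lay below all wildtype values. Fam35a (Shld2), a subunit of shieldin in DNA repair, had -0.43 and -0.24 at its 2 probes. Among the 13 genes of chromatin, DNA repair and RNA control, 17 probes were tested and none was called in either direction, with a median log2 fold change of -0.03. Outside Wapal their probes ranged from -0.20 at Sfmbt1 to 0.10 at Phf7. Bap1, a deubiquitinase of the nucleus, had -0.02 and Ncoa4, the receptor for ferritin breakdown, had -0.10.

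Genes of signalling and transmission were mixed. Of 11 listed genes 10 were tested with 13 probes, of which 1 was called higher (Arhgap22) and 2 lower (Sncg and Syt15), with a median log2 fold change of 0.00. Cacna1d, an L-type calcium channel, had -0.01 and 0.10, Prkcd, a protein kinase C, 0.06 and 0.13, and Sh3bp5 -0.05 and 0.00. Of 8 listed genes of metabolic and secretory enzymes, Galntl2 had no probe under that symbol in the stretch, and the other 7 were tested. These 7 had no call in either direction and a median of 0.00. Their brightest members, Spcs1 of the signal peptidase and transketolase Tkt, had log2 fold changes of -0.01 and 0.01. Of 7 listed plasma and vessel proteins 5 were tested, with Anxa8 the only call. Itih3, an inter-α-inhibitor heavy chain, had 0.09 and the scavenger receptor Stab1 -0.05. Gdf10, a ligand of the TGF-β family, had -0.05 beside the Bmpr1a value above, and Gdf2 was above background on no array.

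Of the 5 genes of retina and light response, only Rbp3, which carries retinoids between cells of the retina, was tested. Its log2 signals were 12.45, 12.40, 12.79 and 13.21 in the α-Gal A(-/0) mice and 12.25, 12.39, 12.44 and 12.38 in the wildtype mice. These groups overlapped, and the log2 fold change was 0.35 (SE 0.172, adjusted p = 0.474 by limma). Opn4, the photopigment melanopsin, had means of 4.73 in the α-Gal A(-/0) mice and 4.03 in the wildtype mice and was above background on 3 α-Gal A(-/0) and 2 wildtype arrays, too few to be tested. Lrit1 and Lrit2 were above background on no array. Rgr was above background on 1 array, where its probe A_51_P139985 had 10.48 in α-Gal A(-/0) replicate 2, while the other α-Gal A(-/0) mice had at most 2.42 and wildtype mice at most 2.50. Of 5 photoreceptor marker genes elsewhere in the genome, 2 were tested and neither was called.

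At the cholinergic gene locus the mice differed more within each genotype than between them. Chat, the enzyme that makes acetylcholine, had log2 signals of 10.17, 10.47, 10.11 and 9.73 in the α-Gal A(-/0) mice and 9.68, 10.46, 10.08 and 9.74 in the wildtype mice, a log2 fold change of 0.13 (SE 0.207, adjusted p = 0.846 by limma). Slc18a3, which loads it into vesicles, had 8.54, 8.95, 8.26 and 7.003 in the α-Gal A(-/0) mice and 6.65, 8.26, 7.67 and 7.53 in the wildtype mice, with 0.66 (SE 0.461, adjusted p = 0.611 by limma). The Chat probe shares a run of 20 or more bases with 2 probes of other genes on the same strand and with 1 on the opposite strand, so that its signal may not be Chat alone. α-Gal A(-/0) replicate 4 and wildtype replicate 1 were the lowest of their genotypes at both probes. The same 2 mice were lowest at the neighbouring probes BB086117 and Gm2990, whose log2 fold changes were 0.52 and 0.38 with standard errors of 0.510 and 0.388.

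**Figure D4:**
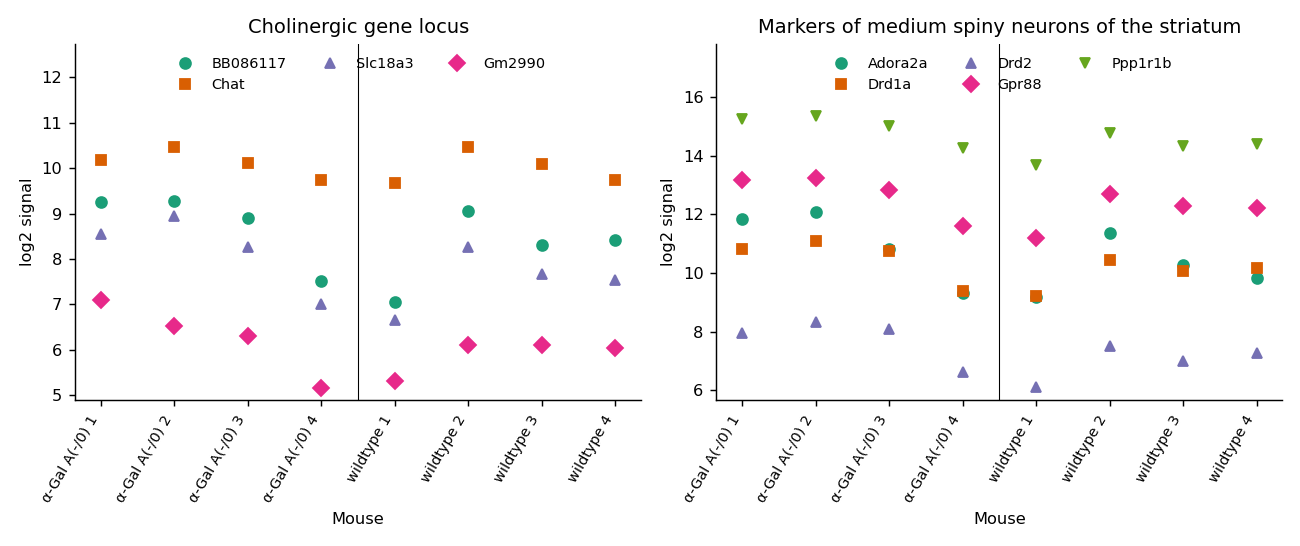
Log2 signal in each mouse of the 4 probes at the cholinergic gene locus (left) and of 5 marker genes of medium spiny neurons of the striatum (right), with α-Gal A(-/0) mice left of the line and wildtype mice right of it. α-Gal A(-/0) replicate 4 and wildtype replicate 1 have the lowest values of their genotype at all 9 probes.

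Markers of medium spiny neurons, a cell type of the striatum, went along with these values. The mean log2 signal of the 5 marker genes was 11.82, 12.02, 11.51 and 10.24 in the α-Gal A(-/0) mice and 9.88, 11.36, 10.79 and 10.78 in the wildtype mice, and none of the 5 was called, with a median log2 fold change of 0.69. Of 4 marker genes of olfactory bulb neurons, another tissue next to the frontal cortex, all were tested and none was called, and they differed between mice too, with a mean of 7.03, 7.31, 9.37 and 9.02 in the α-Gal A(-/0) mice and 9.13, 7.54, 7.25 and 8.52 in the wildtype mice. Wildtype replicate 1 was highest in its genotype and α-Gal A(-/0) replicates 3 and 4 were the high ones in theirs. The part of either marker list in the values of the cholinergic locus was not tested. At the called probes of Ldb3 and Ghitm, α-Gal A(-/0) replicate 4 instead had the highest value of its genotype.

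The called probes kept their direction within each row of the slide, 12 of 12 in both rows. This follows from the lack of overlap between the genotypes at these probes and is no check on the row. With the row as a block in the fit, 3 of the 12 remained called, which were Gm3219 (adjusted p = 0.0432), Ldb3 (adjusted p = 0.00176) and the Ghitm probe A_55_P2061381 (adjusted p = 0.0275 by limma). Without α-Gal A(-/0) replicate 2, the array with the fewest probes above background, 8 of the 12 remained called. The Ldb3 log2 fold change was then -2.03, that of Gm3219 -2.89 and that of the Ghitm probe A_55_P2061381 0.51. Leaving out each array in turn, 5 of the 12 remained called in every case, which were Ldb3, Gm3219, Ptpn20, A_30_P01024957 and A_55_P2061381 of Ghitm. Of these, Ptpn20 was called in only 3 of the 7 other planned settings that tested it.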

How the data were processed

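The members and gene lists were chosen with earlier results of these data known. Intensity values, as deposited, are the processed signals of the scanner files, which the authors made with Agilent Feature Extraction 10.7.3.1 from one-color arrays. Per the file headers they were detrended within an array, without subtraction of the local background, and they are not normalized between arrays. The deposited series table was not used, since its columns do not follow their sample names, and no fold changes of the authors were used. Spots of a probe were averaged, taken to log2 and quantile normalized as in the study. Left out were control probes and 81 others that had an uneven spot. A probe was tested if each of the 4 arrays of a genotype had it well above background, with limma 3.58.1 (lmFit, eBayes) under R 4.3.3. The authors' own test was Welch's test in GeneSpring, here an alternative. Tested on simulated data of 4 arrays against 4, the steps called 0 of 50 probes changed 1.2-fold, 27 of 50 at 1.5-fold, 42 at 2-fold and 46 at 4-fold among 34339. The simulated spreads were shuffled between probes and no filter on signal was applied, so these shares do not describe dim probes near background. The number of arrays limits the precision. Positions are those of the array design (mm9).

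Named were all genes with a called probe, further genes past the study's criterion, Ghitm and Ldb3, up to 4 bright members of each list, the members of the TMBIM and PDZ-LIM families, the probes at the limits and beside the calls, and Gla. Symbols were matched by accession to RefSeq (GRCm38.p6) for 116 of the 196 probes, and 10 have a newer symbol. Replicate numbers do not pair the mice. The alternatives changed the scaling (shift to the 75th percentile), the background (normexp, offset 50), the filter (none, or all 8 arrays above background) and the variances (robust, with a trend on intensity). Others omitted saturated probes or 1 array at a time, used the methods' test, or added a replicate block. Slide row as a block and each row alone were added after the data were seen. Python 3.11.15 (numpy 2.4.6, pandas 2.3.3, matplotlib 3.10.9) was used for tables and figures.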

Additional observations from a re-analysis of the deposited data

Results flagged for a closer look

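In 9 of 74 groups of 4 mice looked at, for 37 probes, 1 mouse lay far from the other 3 by Dixon's test. Looked at were called probes, those past the study's criterion, other probes of called genes and some further genes of the stretch. The test flags about 1 in 20 groups by chance. Some of these probes were picked with their values known, so the flagged share cannot be set against that. α-Gal A(-/0) replicate 2 was the mouse that lay apart at 4 probes. It had a log2 signal of 10.48 at Rgr and 8.81 at Mustn1, above the other α-Gal A(-/0) mice, and 7.42 at Fam35a and 9.47 at Wapal, below them. The second probe of A930038B10Rik (A_52_P612251) had 7.53 in α-Gal A(-/0) replicate 1, and the called noncoding probe A_30_P01024957 had 5.07 in α-Gal A(-/0) replicate 3, the highest of its genotype. Among wildtype mice, replicate 1 was lowest with 10.06 at the uncalled Zfp488 probe and with 5.32 at Gm2990, and replicate 4 was highest with 13.28 at the Glud1 probe A_55_P2065716.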

How the results depend on the processing

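The 12 called probes kept their direction under every alternative that tested them. Wherever the normalized values were the same, this was fixed by the lack of overlap between the genotypes and is no check. In place of 9 lower calls, there were 5 with no filter on signal, 2 with only probes above background on all 8 arrays (which left 104 probes tested and 11 past the study's criterion), 1 with the methods' Welch test and 4 with a replicate block. Of 3 higher calls, 1 was left with the methods' Welch test and 1 with a replicate block. With no filter on signal there were again 3, but Arhgap22 (adjusted p = 0.0851) and the Ghitm probe A_52_P246749 (adjusted p = 0.100) were lost, and Fam25c and A930038B10Rik were added. The residual correlations between mice of one replicate number, from -0.09 to 0.15, do not show pairing. With the slide row as a block there were 1 higher and 2 lower calls. Row 1 alone gave 0 higher and 2 lower calls, and row 2 alone, with 1 wildtype array assumed to vary like the others, 0 of either and 2 probes past the criterion. Without 1 array, higher calls ranged from 1 to 2 and lower calls from 4 to 10. There were 4 or 5 lower calls without α-Gal A(-/0) replicate 1 or 3 or any 1 wildtype array, and 1 higher call without α-Gal A(-/0) replicate 1, 3 or 4 or wildtype replicate 2, 3 or 4.

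The first called probe started at 34183060 with probes above background on all 8 arrays, at 35340281 with the methods' Welch test, at 33772880 with an intensity trend and robust variances, and at 35158425 with the slide row as a block or row 1 alone. It ranged from 33772880 to 33936829 when 1 array was left out. The last called probe started at 37935196 in all settings with calls except row 1 alone, where it was the Ldb3 probe at 35340281. The causes were not tested, apart from the smaller number of probes or arrays where the setting removes them. The called Ldb3 probe kept its call in all 7 planned settings that tested it and all 8 omissions of an array, with log2 fold changes from -2.38 to -1.35 over all alternatives, and lost it in row 2 alone (adjusted p = 0.261). With normexp the dim probes shrank, to -1.18 at Gm3219 and -0.26 at Ptpn20. Ptpn20 lost its call with normexp (adjusted p = 0.0891), the trend with robust variances (0.0758), the methods' Welch test (0.0785) and a replicate block (0.101). Most lower calls lie near background, where 4 arrays per genotype limit what can be resolved.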

Other observations

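A930038B10Rik, a noncoding transcript behind Ldb3 that was not tested and is named because its values stood apart, had log2 signals of 4.16, 4.46, 4.39 and 4.62 in α-Gal A(-/0) mice and 2.004, 2.02, 2.02 and 2.02 in wildtype mice at its probe A_55_P2251974. It was above background on 2 α-Gal A(-/0) arrays and on no wildtype array. Against the dimmest signals that counted as above background, the mean of the α-Gal A(-/0) mice was 1.31-fold higher. That mean includes arrays below background, so the value is a rough estimate and not a bound. Without a filter on signal, it was called (adjusted p = 0.000186 by limma), as was Fam25c (adjusted p = 0.00225). Without α-Gal A(-/0) replicate 2 Fam25c was tested and called as well, with a log2 fold change of 3.37 (adjusted p = 0.00188 by limma). The only other probes of the stretch called under an alternative were those of Wdfy4, with an adjusted p of 0.0367 under an intensity trend with robust variances and 0.0413 without α-Gal A(-/0) replicate 4, and the second probe of Ldb3, with 0.0379 without that mouse (limma).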
